A study of Mus musculus with 3 samples.

Results

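The mitosis genes described here are 31 genes whose products drive cells through the G2 and M phases of the cell cycle. They were chosen by symbol from the 27998 genes of each count table, and all 31 were found. They were followed in cells of E18.5 mouse fetal brain described as carrying the myeloid integrin CD11b. The cells were profiled by droplet single-cell RNA sequencing of transcript 3' ends, where each counted molecule carries a unique molecular identifier (UMI). Some gates used below, such as radial glia, hold cells that are not myeloid, and how these entered the libraries was not tested. There were 3 libraries, 1 per group. The first came from the Ncr1-cre genotype with saline (the saline library) and the second from Ncr1-cre with polyIC, a synthetic double-stranded RNA that mimics viral infection (the polyIC library). The third came from the Gzmb-cko group, genotype Ncr1-cre;gzmbf/f, with polyIC (the Gzmb-cko library). All 3 groups thus carry Ncr1-cre, a recombinase driven by the promoter of a natural killer cell receptor gene, and the floxed gene encodes the cytotoxic protease granzyme B. No Gzmb-cko library with saline was analysed here. The labels speak of groups of pregnant mice. They give neither the number of fetuses pooled nor whether dam or fetus carried the floxed allele. Values are given in the order saline, polyIC, Gzmb-cko throughout. Treatment and genotype each rest on single libraries, so neither was tested. All 95% intervals of levels, shares and ratios cover counting error only.

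Entry into mitosis depends on cyclin-dependent kinase 1 bound to its cyclins, after which chromosomes condense, attach to the spindle through their kinetochores and are separated once the anaphase-promoting complex is switched on. The genes of this machinery are transcribed late in the cycle, mostly by the MuvB complex with B-Myb and FOXM1, which reaches promoters through the short element called CHR, often beside CCAAT boxes bound by NF-Y. Microglia, the macrophages of the brain tissue, enter the brain as yolk sac progenitors and multiply there around birth, so cells with these transcripts are a known feature of the fetal microglial pool.

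Promoter sequence was available for 27 of the 31 genes from RefSeq (build GRCm38.p6, 250 bases before to 50 after the start). The other members were Ccna2, Aurkb, Tpx2 and Smc4. The CHR, searched as TTTGAA or TTCGAA on both strands, was present in 20 of the 27 promoters (74.1%). It was present in 16.1% of 6136 genes with at least 10 CPM in microglia (CPM is the UMI count of a gene per 1000000 UMIs of all genes in the gate's cells), and in 21.7% of all 27025 genes in the table. CCAAT, on both strands, was present in 21 of 27 (77.8%), against 42.7% of the 6136 genes and 41.1% of all genes. Both motifs stood together in 18 promoters, CHR alone in 2, CCAAT alone in 3 and neither in 4. In a second list of 55 mitosis genes that holds none of the members, 29 of the 40 genes with a promoter (72.5%) held the CHR, and among S phase genes 5 of 26 did (19.2%). TATAAA, on both strands, was found in none of the 27, and in 8.28% of the 6136 genes. A match describes these letters in this window and is not a measured binding site. The 100 bases before the start are shown for 7 members, because they cover the range from repeated motifs to none. They are printed 5' to 3' on the gene's strand, with CHR and CCAAT matches on either strand in capitals (TTCAAA is TTTGAA and ATTGG is CCAAT read from the opposite strand). Top2a, Cdk1, Cdc20 and Kif11 hold both motifs in this stretch, and Nusap1 holds neither motif. Ccnb2 and Hmmr hold 3 CCAAT matches each there and no CHR, but each holds a CHR elsewhere in the searched window. A CHR in this stretch was not typical: 6 of the 27 members had one (22.2%, against 4.61% of the 6136 genes). Within 50 bases on either side of the start, 18 of the 27 had one (66.7%, against 4.27%).
Top2a, DNA topoisomerase II alpha, minus strand, chr11:99024190-99024289: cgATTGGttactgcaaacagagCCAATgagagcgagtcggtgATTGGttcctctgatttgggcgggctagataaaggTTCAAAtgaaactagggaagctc
Cdk1, the mitotic kinase, minus strand, chr10:69352913-69353012: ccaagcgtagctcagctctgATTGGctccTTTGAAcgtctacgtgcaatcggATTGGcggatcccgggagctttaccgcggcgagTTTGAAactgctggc
Cdc20, activator of the anaphase-promoting complex, minus strand, chr4:118437344-118437443: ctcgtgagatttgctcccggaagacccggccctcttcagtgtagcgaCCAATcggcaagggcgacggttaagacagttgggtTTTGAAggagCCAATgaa
Kif11, the spindle motor kinesin, plus strand, chr19:37376282-37376381: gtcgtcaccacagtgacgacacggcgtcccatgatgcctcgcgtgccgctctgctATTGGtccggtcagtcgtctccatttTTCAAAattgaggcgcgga
Ccnb2, cyclin B2, minus strand, chr9:70421555-70421654: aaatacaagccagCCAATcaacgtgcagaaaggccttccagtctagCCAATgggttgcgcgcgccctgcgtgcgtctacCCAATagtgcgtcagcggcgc
Hmmr, a spindle-associated hyaluronan receptor, minus strand, chr11:40733438-40733537: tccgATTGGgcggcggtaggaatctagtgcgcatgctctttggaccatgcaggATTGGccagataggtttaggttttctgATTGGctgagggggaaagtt
Nusap1, a spindle microtubule-binding protein, plus strand, chr2:119618198-119618297: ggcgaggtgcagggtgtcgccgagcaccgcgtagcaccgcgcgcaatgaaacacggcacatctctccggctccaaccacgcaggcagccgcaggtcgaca

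The libraries held 13820, 14887 and 15306 barcodes, of which 12148, 10759 and 13447 passed the filter of at least 500 genes and at most 10% mitochondrial UMIs. They did not enter alike: barcode totals began at 500 UMIs in both polyIC libraries and at a higher limit with saline, and each pair of libraries shared 63 to 71 barcode sequences (0.412% to 0.514% of a library). Cells were gated by marker UMIs. Microglia (P2ry12 present, Mrc1 absent) numbered 5452, 4519 and 5399, border macrophages of the meninges and choroid plexus (Mrc1 and Pf4 present) 1125, 686 and 1896, and monocytes (Ccr2 and Ly6c2 present) 718, 510 and 465. Neutrophils (at least 20 UMIs of each of S100a8 and S100a9) numbered 543, 562 and 212, and radial glia, the neural stem cells of the fetal brain (Sox2 and Fabp7 present), 146, 163 and 93. Radial glia, which are not myeloid, were only 1.20%, 1.52% and 0.692% of the kept cells. All 11 microglia markers were highest in the microglia gate in every library, as were all 13 neutrophil markers in theirs. The border gate led for 9 of 10 of its markers, the monocyte gate for 7 of 9 and the radial glia gate for 8 or 9 of 10. These counts include the genes that define each gate, whose place was largely set by the gate itself. The gates were not pure. Cells that met another gate too made up 2.96% to 6.29% of microglia, but 24.6% to 45.1% of neutrophils, 29.6% to 41.2% of monocytes and 19.6% to 39.8% of radial glia. In the microglia gate, hemoglobin transcripts of red cells made up 9.75%, 5.45% and 2.53% of UMIs, and Ttr, a gene of the choroid plexus, reached 10683, 9716 and 3938 CPM. Their part in the differences between libraries was not tested beyond the settings given below. Cells with Xist and no Y gene UMI were 41.3%, 47.8% and 31.95% of microglia, so the sexes were not equally mixed.

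In microglia the mitosis genes together accounted for 2054, 1843 and 1915 CPM of all UMIs, and every member had at least 13 CPM in each library. A 3' tag counts a transcript once whatever its length, so levels were not divided by length. Top2a and Mki67, both genes of chromosome structure, had the highest levels. Mki67, which encodes the coat protein of mitotic chromosomes known as Ki-67, stood at 221, 220 and 173 CPM. Top2a, which untangles DNA before segregation, stood at 227, 196 and 188 CPM. Smc4, a condensin subunit, had 99.5, 94.99 and 79.5 CPM. In all 3 of these genes the Gzmb-cko library was lowest.

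**Figure D1:**
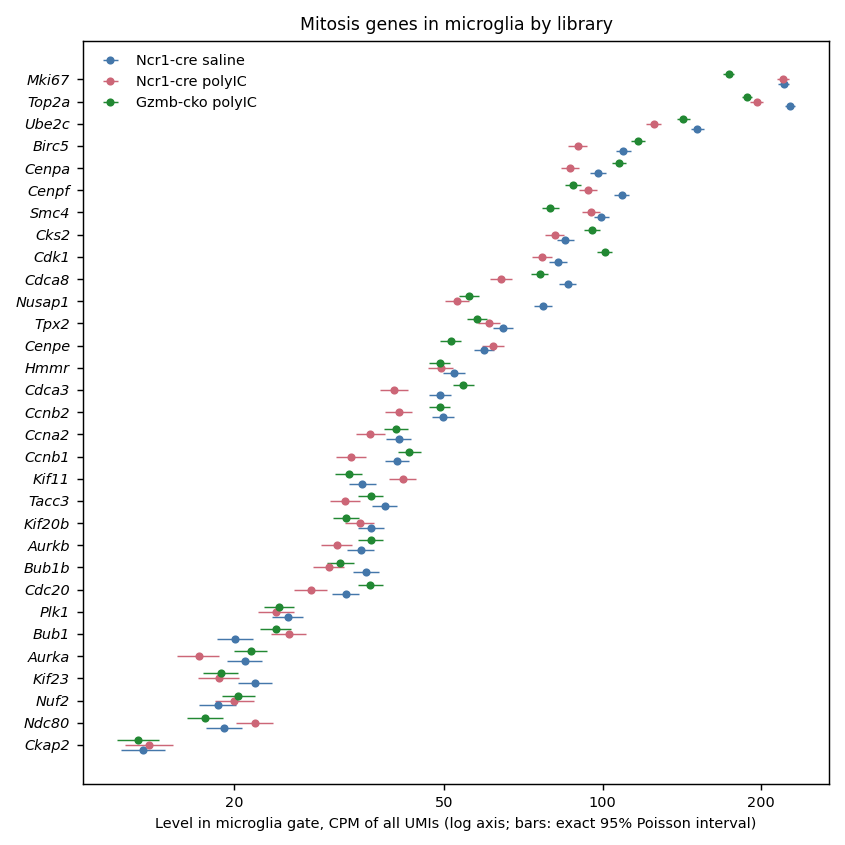
Level of each of the 31 mitosis genes in the microglia gate, as CPM of all UMIs on a log axis, for the 3 libraries; bars are exact 95% Poisson intervals. Mki67 and Top2a lead at 173 to 227 CPM and Ckap2 is lowest at 13.1 to 13.8 CPM, and the order of the libraries changes from gene to gene.

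Next by its mean over the libraries, Ube2c, the ubiquitin-conjugating enzyme of the anaphase-promoting complex, stood at 151, 125 and 142 CPM, lowest with polyIC in Ncr1-cre mice. Among the chromosomal passenger genes, which correct kinetochore attachments, Birc5 (survivin) stood at 110, 89.7 and 117 CPM. At the centromere, the histone H3 variant Cenpa stood at 97.9, 86.7 and 107 CPM, and the kinetochore protein Cenpf at 109, 93.9 and 87.7 CPM. Cks2, a small subunit of the Cdk1 complex, had 85.0, 81.2 and 95.6 CPM. Ube2c, Birc5, Cenpa and Cks2 shared 1 pattern, with the polyIC library lowest, while Cenpf was lowest in the Gzmb-cko library. The remaining 23 members ranged from Ckap2, a spindle protein, at 13.4, 13.8 and 13.1 CPM up to Cdk1 at 82.3, 76.7 and 101 CPM.

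Between the Ncr1-cre libraries, which asks what polyIC does, the summed level of the mitosis genes in microglia was lower with polyIC, at 1843 against 2054 CPM (ratio 0.897, 95% interval 0.887 to 0.908). Of the 31 genes, 25 were lower and 6 higher, while 23.2% of the 7847 genes with at least 10 CPM were lower. The median log2 ratio was -0.17 for the members and 0.18 for all genes. The differences were small. A limit of 25% higher or 20% lower, the same fold in either direction, was used to count larger differences. Past it, 2 members were lower, as were 4.13% of all genes, 1 member was higher, as were 25.7% of all genes, and no member passed 1.5-fold (4.17% of all genes higher, 1.33% lower). Chromosomal passenger genes had the lowest ratio of sums, 0.804 (0.776 to 0.834), followed by exit genes at 0.830 (0.801 to 0.859), and the centromere and kinetochore genes the highest, 0.936 (0.908 to 0.964).

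The lowest ratio was that of Nusap1, which bundles spindle microtubules, at 52.9 against 77.1 CPM (0.686, 0.643 to 0.733). Cdca8 (borealin), a passenger subunit, stood at 64.3 against 85.9 CPM (0.748, 0.704 to 0.795), and the spindle pole kinase Aurka at 17.1 against 21.0 CPM (0.816, 0.724 to 0.920). At the other end Bub1, a spindle checkpoint kinase, stood at 25.4 against 20.1 CPM (1.26, 1.13 to 1.41). Kif11, the motor that pushes spindle poles apart, had 41.8 against 35.01 CPM (1.19, 1.10 to 1.30), and Ndc80, the kinetochore's microtubule anchor, 21.9 against 19.1 CPM (1.14, 1.02 to 1.28). The intervals of Kif11 and Ndc80 include the median ratio of all genes on this scale.

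The summed ratio of polyIC over saline stayed below 1 under all 13 other settings tried, from 0.788 to 0.934. It was 0.830 among cells with at most 1% hemoglobin UMIs and 0.820 on a total without the genes of mitochondria, ribosomal proteins and hemoglobin. It was 0.934 among cells with Xist alone and 0.789 among cells with Y gene UMIs alone.

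Between the polyIC libraries, which differ in the Gzmb genotype, the summed level was 1915 CPM with Gzmb-cko against 1843 CPM with Ncr1-cre (1.04, 1.03 to 1.05). That ratio was 0.993 to 1.11 over the other settings, on the low side of 1 when at least 1000 genes and at most 5% mitochondrial UMIs were required. The sum combined roles that differed. Chromosomal passenger genes stood 1.24-fold (1.19 to 1.28) as high, exit genes 1.21-fold (1.17 to 1.249), and kinases and cyclins 1.18-fold (1.15 to 1.21). Chromosome structure genes stood at 0.863 (0.843 to 0.883), spindle and motor genes at 0.974 (0.946 to 1.003) and centromere and kinetochore genes at 1.0004 (0.971 to 1.03). In all, 19 members were higher and 12 lower, with a median log2 ratio of 0.07, while 42.6% of all genes were higher (median -0.04). Past the 25% limit 6 members were higher, against 2.68% of all genes, and 2 lower, against 9.88%. No member passed 1.5-fold, as 0.268% of all genes did upward and 2.19% downward.

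Highest in this comparison was Cdca3, a factor that marks Wee1 for destruction at mitotic entry, at 54.5 against 40.2 CPM (1.35, 1.26 to 1.46). Cdk1 followed at 101 against 76.7 CPM (1.32, 1.247 to 1.39) and Birc5 at 117 against 89.7 CPM (1.30, 1.24 to 1.37). Lowest were Mki67, at 173 against 220 CPM (0.788, 0.761 to 0.817), Kif11, at 33.0 against 41.8 CPM (0.789, 0.726 to 0.856), and Ndc80, at 17.6 against 21.9 CPM (0.805, 0.718 to 0.902). Kif11 and Ndc80 were thus among the highest ratios of the first comparison and the lowest of the second, but the polyIC library stands in both.

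The Gzmb-cko polyIC and saline libraries differ in both genotype and treatment. Their summed levels were 1915 and 2054 CPM (0.932, 0.922 to 0.942), and 20 members were lower and 11 higher (median log2 -0.09, against 0.14 for all genes). Cdk1 stood at 101 against 82.3 CPM (1.23, 1.17 to 1.29), Bub1 at 24.0 against 20.1 CPM (1.19, 1.08 to 1.32) and Cks2 at 95.6 against 85.0 CPM (1.12, 1.07 to 1.18). At the low end Nusap1 stood at 55.8 against 77.1 CPM (0.723, 0.682 to 0.767), Mki67 at 173 against 221 CPM (0.786, 0.760 to 0.813) and Smc4 at 79.5 against 99.5 CPM (0.799, 0.760 to 0.840). Those 3 were the only members lower by at least 20%, against 4.47% of all genes, and none was higher by at least 25%, against 15.8%. None passed 1.5-fold, where 1.29% of all genes were higher and 2.12% lower.

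Summed levels mix how many cells carry mitosis genes with how much each of them carries. To separate these, each cell was thinned to 2000 UMIs and its detected members were counted. Cells below that depth, 0, 445 and 169 microglia, were left out. Most microglia had none or few: 47.9%, 58.0% and 53.3% had 0 members. Counts from 5 to 15 formed a plateau at about the same height for each number of genes, in place of falling further. Cells with 3 to 7 members, those near the chosen limit of 5, were 9.87%, 6.53% and 7.61% of microglia.

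**Figure D2:**
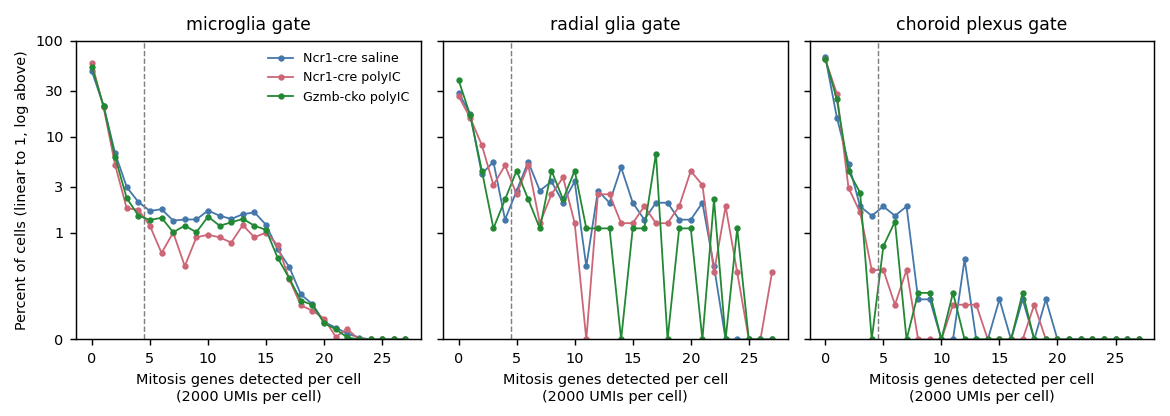
Percent of cells by the number of mitosis genes detected in 2000 UMIs, in the microglia, radial glia and choroid plexus gates (vertical axis linear up to 1% and logarithmic above), with the limit of 5 genes as a dashed line. Microglia fall steeply to about 5 genes and then stay level to about 15, and the choroid plexus gate has few cells to the right of the line.

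Cells with 5 or more members made up 19.2% (18.1 to 20.2) of microglia with saline, 13.01% (11.99 to 14.1) with polyIC and 15.9% (14.9 to 16.9) with Gzmb-cko and polyIC. The 3 intervals do not overlap. Without thinning the shares were 26.8%, 18.48% and 23.5%. The order saline, Gzmb-cko, polyIC held in all 15 settings tried, with the ratio of polyIC over saline between 0.600 and 0.715 and that of Gzmb-cko over polyIC between 1.14 and 1.33. Among cells with Xist alone the shares were 20.1%, 12.1% and 14.6%, and among cells with Y gene UMIs alone 20.01%, 12.6% and 16.8%. Cells with both kinds of UMI, not among these settings, kept the order at 23.99%, 17.4% and 18.1%. Cells with neither kind, also outside these settings, did not keep it. Their shares were 15.5%, 15.01% and 15.9% of 1403, 966 and 1318 cells. The Gzmb-cko library was highest there, and the intervals of all libraries overlap. The choroid plexus gate, epithelial cells that should hold few dividing cells, gave 7.89% (4.95 to 11.8), 2.93% (1.35 to 5.49) and 3.93% (1.81 to 7.33). Its median depths were 7974.5, 5774 and 4899.5 UMIs, against 4809, 5176 and 5780 in microglia. These shares were lower than in microglia and highest with saline too, but their intervals overlap, and those with polyIC rest on 9 cells in each library. The part of choroid plexus material in the microglial shares was not tested. Cells among the highest doublet scores made up 16.7%, 20% and 17.3% of the microglia with 5 or more members, and with all such cells removed the shares were 17.7%, 11.9% and 14.7%.

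These member-rich cells held 83.8%, 85.0% and 85.1% of all UMIs of the mitosis genes in microglia, and 21.8%, 16.0% and 19.5% of all UMIs. Their summed level was 7889, 9809 and 8344 CPM, and their median depth 5746, 7104 and 7352 UMIs, against 4461, 5252 and 5566 in cells with 0 members. Share and level moved in opposite ways. The level of each member was therefore read in cells chosen by the other 30, so that a gene did not select its own cells. With polyIC over saline, 30 of 31 members were higher in those cells (median ratio 1.23, against 1.11 for all genes there), while the share of such cells had a ratio of 0.679. With Gzmb-cko over polyIC, 23 of 31 were lower (0.855, against 0.954 for all genes) at a share ratio of 1.22.

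Single genes show the same contrast. Mki67 stood at 912, 1289 and 826 CPM in cells with 5 or more of the other members, and at 13.05, 7.74 and 6.08 CPM in cells with none. Top2a stood at 915, 1107 and 850 CPM against 17.0, 11.2 and 13.4 CPM. Hmmr had 223, 298 and 234 CPM against 1.39, 0.421 and 1.53 CPM. The share of a member's UMIs that lay in such cells ran from 67.3% for Cdk1 with polyIC to 95.2% for Hmmr with polyIC, and Cdk1 had the lowest share in every library. Its level in cells with none of the other members was 21.7, 21.3 and 27.8 CPM.

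Other genes that went with the mitosis genes were mostly of the same machinery. Genes were ranked by the smallest of their 3 ratios of member-rich to member-free microglia. First by this rule was Aspm, a spindle pole protein, at 143, 195 and 134 CPM against 0.694, 0.849 and 0.907 CPM (148-fold to 229-fold). Prc1, which bundles the central spindle, followed at 98.7-fold to 140-fold, then Cdca2, the kinesin Kif4 and the abscission factor Cep55, whose lowest ratios were 80.3, 77.7 and 76.0. The remaining 7 of the 12 highest were Sgol2a, Pbk, Melk, Hist1h1b, Kif20a, Hist1h3c and Fam64a, and the histone genes among them have near-identical copies, so their values are uncertain. Of the 12, 9 were in the second mitosis list, and Cep55 and both histone genes were not. These levels rest on few UMIs in the member-free cells, 5 to 53 per library except for Hist1h1b.

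By list, 54 of 55 genes of the second mitosis list were higher in member-rich microglia in all 3 libraries, 32 of 33 measured S phase genes were, and 23 of 24 measured mitotic regulators were. Of all other genes with at least 10 CPM in member-rich or member-free cells, 3962 of 8271 were higher and 2220 lower. Among the regulators, Foxm1, the transcription factor of late cycle genes, stood at 47.8, 58.1 and 49.0 CPM against 1.04, 0.707 and 0.850 CPM. Genes that brake the cycle or act in G1 were divided, 9 of 15 higher and 5 lower. Cdkn2c, an inhibitor of Cdk4 and Cdk6, was higher at 103, 142 and 155 CPM against 6.11, 5.94 and 7.37 CPM. Btg1, an antiproliferative gene, was lower at 239, 227 and 257 CPM against 391, 470 and 486 CPM. Microglia markers were lower for 7 of 11 and higher for none, with P2ry12 at 678, 894 and 829 CPM against 872, 1403 and 1162 CPM. However, the gate requires P2ry12 in every cell, which weighs more on the CPM of shallow cells, and member-free cells were the shallower. The part of this in the P2ry12 values was not tested. Ttr and 4 hemoglobin genes were among the 12 genes with the lowest ratios, with Ttr at 4386, 2874 and 976 CPM against 15462, 8477 and 4578 CPM.

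The 34 S phase genes divide the member-rich microglia further. Cells with 5 or more members and under 5 S phase genes were 13.02% (12.1 to 13.9), 7.98% (7.16 to 8.85) and 9.87% (9.07 to 10.7) of microglia. Cells with 5 or more of both were 6.14% (5.52 to 6.81), 5.03% (4.38 to 5.75) and 6.02% (5.39 to 6.70). Cells with 5 or more S phase genes and fewer members were 9.04%, 8.03% and 9.66%, and 71.8%, 79.0% and 74.5% had neither. Of these 3 kinds of cell with cycle genes, only that with mitosis genes alone had intervals that were apart for all 3 libraries.

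**Figure D3:**
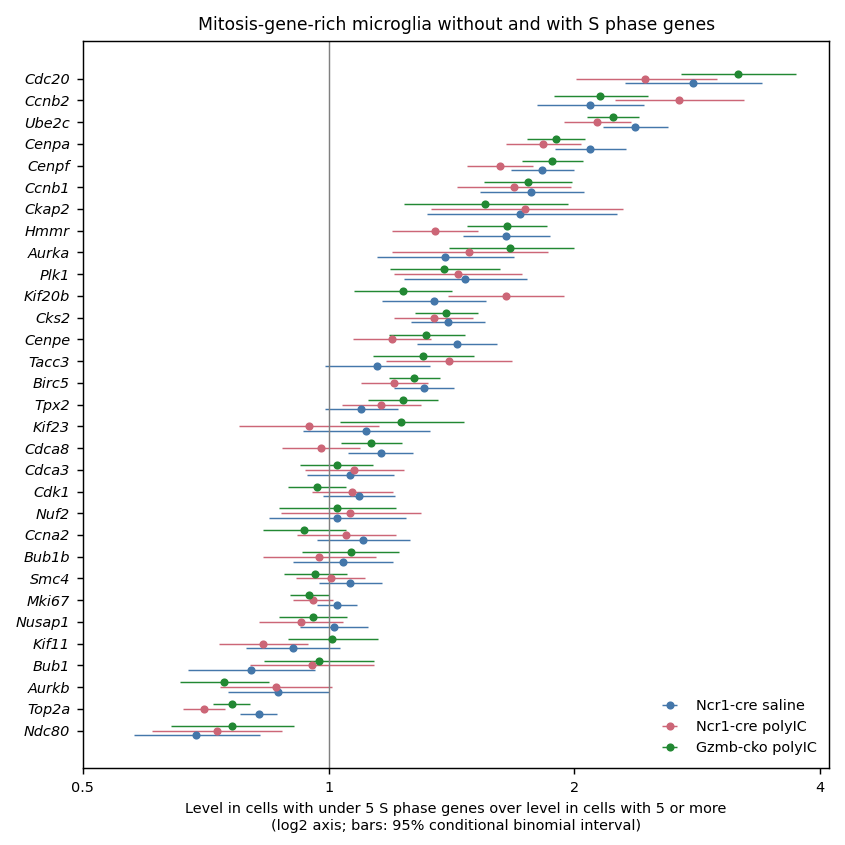
For each mitosis gene, its level in member-rich microglia with under 5 S phase genes divided by its level in those with 5 or more (log2 axis, 1 point per library; bars are 95% conditional binomial intervals). Cdc20, Ccnb2 and Ube2c lie at 2.09 to 3.17 and Ndc80 and Top2a at 0.688 to 0.821 in all 3 libraries.

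Across this split the members fell into an order that repeated in the 3 libraries, with 18 of 31 higher in cells without S phase genes in every library and 4 lower in every library. Of 7972 other genes with at least 10 CPM in member-rich microglia, S phase genes left out, 21.99% were higher in every library and 30.8% lower. The genes named here were chosen after their values were seen. Cdc20 stood at 162, 197 and 222 CPM in cells without S phase genes against 58.0, 80.5 and 69.9 CPM in cells with them (ratios 2.79, 2.44 and 3.17). Ccnb2 stood at 206, 255 and 243 CPM against 98.8, 95.1 and 113 CPM, and Ube2c at 622, 789 and 782 CPM against 262, 370 and 351 CPM. These genes act in mitosis or at its exit, but so do Ndc80, Aurkb and Bub1, which went the other way. Cdca3, counted with the exit genes, had ratios of only 1.02 to 1.07. Top2a went the other way, at 859, 960 and 764 CPM against 1047, 1364 and 1004 CPM (0.821, 0.703 and 0.761), as did Ndc80 at 66.9, 102 and 70.0 CPM against 97.2, 140 and 91.9 CPM. Aurkb, the passenger kinase, and Bub1 were the other two lower in every library, at 0.745 to 0.867 and 0.803 to 0.973. Mki67 had ratios of 1.02, 0.958 and 0.947, and Cdk1 of 1.09, 1.07 and 0.968.

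The lists fixed beside the members gave the following values in whole microglia. With polyIC over saline, 34 of 45 measured genes of the second mitosis list were lower (median log2 ratio -0.12) and 19 of 30 S phase genes were lower (-0.04), and 7 of 20 mitotic regulators were lower (0.13), where 23.2% of all genes were lower (0.18). With Gzmb-cko over polyIC, 27 of 30 S phase genes were higher (0.21), as were 29 of 45 of the second mitosis list (0.08) and 9 of 20 regulators (-0.02), where 42.6% of all genes were higher (-0.04).

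Outside microglia the summed level was highest in radial glia, and lowest in monocytes except with polyIC, where neutrophils were lower still. It was 2270, 2048 and 2576 CPM in border macrophages, 1225, 1393 and 1009 CPM in monocytes, 2014, 1345 and 2089 CPM in neutrophils and 4370, 5831 and 4061 CPM in radial glia. In the gates kept as a reference it was 1061, 1251 and 1001 CPM in the neuron gate (Stmn2 and Tubb3 present, Sox2 and Ptprc absent) and 666, 411 and 543 CPM in choroid plexus cells. The shares of cells with 5 or more members were 23.2%, 16.2% and 22.4% in border macrophages, 9.75%, 7.87% and 7.56% in monocytes, 20.6%, 6.01% and 14.6% in neutrophils and 43.2%, 41.5% and 36.7% in radial glia. They were 13.7%, 8.05% and 10.2% in the neuron gate, which was thus not free of member-rich cells. What those cells are was not tested. The monocyte shares lie within the counting intervals of those in the neuron gate, which is therefore not a background without dividing cells. Fewer dividing cells and less RNA per dividing cell cannot be told apart in a sum.

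**Figure D4:**
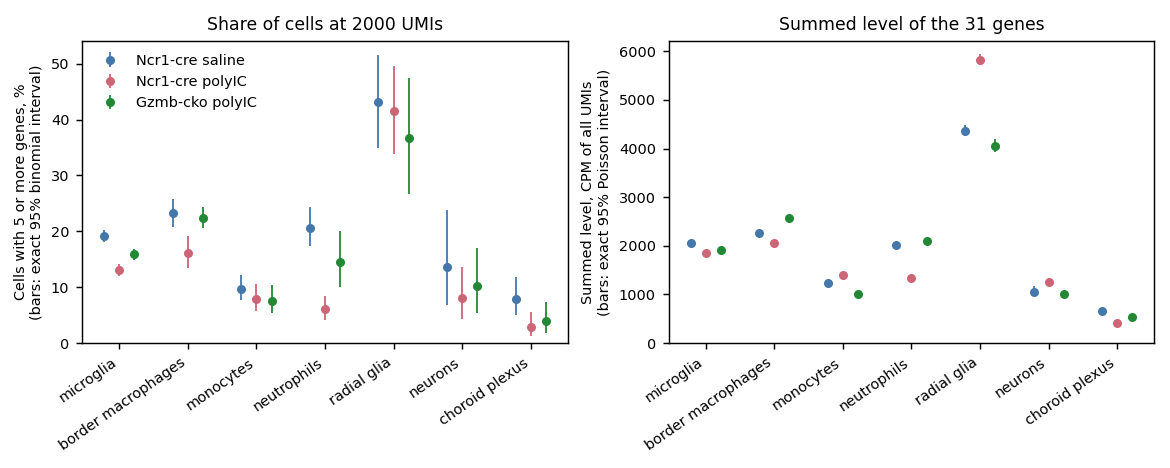
Left, percent of cells with 5 or more mitosis genes at 2000 UMIs, and right, summed level of the 31 genes as CPM, by gate and library (bars are exact 95% binomial and Poisson intervals). Radial glia stand above all other gates in both panels, and the polyIC library is lowest in microglia, border macrophages and neutrophils.

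In border macrophages the polyIC over saline ratio of the sum was 0.903 (0.883 to 0.923), close to that in microglia, and 5 members were lower by at least 20% (5.77% of 7952 genes) and 2 higher by at least 25% (31.9%). With Gzmb-cko over polyIC it was 1.26 (1.23 to 1.28), and 28 of 31 members were higher, where 42.6% of all genes were (median log2 ratio 0.36, against -0.05 for all genes). By at least 25%, 16 members were higher, against 5.6% of all genes, and none lower, against 14.1%. Gzmb-cko over saline had 11 higher, against 18.7%, and none lower, against 4.38%. The ratio by role ran from 1.08 for chromosome structure to 1.56 for the passenger genes, the same 2 ends as in microglia. Birc5 had the highest single ratio, at 132, 97.5 and 167 CPM (1.71 for Gzmb-cko over polyIC), and the kinetochore motor Cenpe the lowest, at 72.6, 75.2 and 71.9 CPM. The Gzmb-cko cells of this gate were also deeper, with median UMIs of 7112, 7225.5 and 9022.5, and hemoglobin took 6.13%, 4.05% and 0.916% of UMIs. Among cells with at most 1% hemoglobin UMIs the Gzmb-cko over polyIC ratio was 1.23. The part of depth or of hemoglobin in these ratios was not tested.

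In neutrophils 28 of 31 members were lower with polyIC than with saline (median log2 ratio -0.68, against 0.06 for all genes), and all 31 were higher with Gzmb-cko than with Ncr1-cre under polyIC (0.69, against 0.18). By the same limits, 25 were lower in the first comparison, against 23.3% of 6949 genes, and none higher, against 31.7%. In the second, 26 were higher, against 39.2%, and none lower, against 16%. Gzmb-cko over saline had 9 higher, against 44.6%, and 2 lower, against 4.3%. Cells whose UMIs of Mpo, Elane and Prtn3, granule genes of neutrophil precursors, added up to 3 or more numbered 43, 19 and 12 (7.92%, 3.38% and 5.66% of the gate). They were deep, with median totals of 11948, 12039 and 15982.5 UMIs against 7107.5, 4175 and 6296 in the other neutrophils. Of these cells 44.2%, 68.4% and 50% also met another gate, against 45.2%, 23.0% and 44.5% of the others. The part of depth and of mixed cells in the next values was not tested. Of the 43, 19 and 12 cells, 55.8% (39.9 to 70.9), 52.6% (28.9 to 75.6) and 75.0% (42.8 to 94.5) had 5 or more members, against 17.6%, 4.17% and 10.8% of the other cells. High doublet scores were carried by 47.3%, 80% and 56.7% of the neutrophils with 5 or more members. With all cells of the highest scores removed the sum was 1685, 504 and 1746 CPM, the same order of the libraries with a wider gap.

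In monocytes the directions depended on whether cells with the highest doublet scores were kept. The sum was 1.14 times as high with polyIC as with saline (1.10 to 1.18), and the Gzmb-cko over polyIC ratio was 0.724 (0.694 to 0.755). Of the 28 members with at least 10 CPM, 10 were higher by at least 25% in the first comparison, against 38.1% of 7387 genes, and 1 lower, against 9.26%. In the second, 19 were lower, against 16.6%, and none higher, against 10.7%. Gzmb-cko over saline had 10 lower, against 5.78%, and none higher, against 27.3%. High doublet scores were carried by 64.3%, 72.5% and 68.6% of the monocytes with 5 or more members, which were 70, 40 and 35 cells. With the highest scores removed, 25, 11 and 11 monocytes with 5 or more members were left. The sums were then 806, 570 and 647 CPM and both ratios changed side, to 0.707 and 1.14. Among monocytes that met no other gate the sums were 963, 997 and 958 CPM, and both ratios kept their side of 1.

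In radial glia the polyIC library was highest: 30 of 31 members were above saline (sum ratio 1.33, 1.29 to 1.38) and 29 of 31 were lower with Gzmb-cko than with Ncr1-cre under polyIC (0.697, 0.672 to 0.722). By the same limits, 21 were higher in the first comparison, against 38.8% of 9374 genes, and none lower, against 17.4%. In the second, 20 were lower, against 40.2%, and none higher, against 19.8%. Gzmb-cko over saline had 3 higher, against 26.1%, and 7 lower, against 25%. Top2a stood at 537, 761 and 549 CPM and Mki67 at 331, 431 and 286 CPM. Among radial glia with Xist alone the sum was 3380, 4906 and 6946 CPM, with the Gzmb-cko library highest. With Y gene UMIs alone it was 6383, 8495 and 3403 CPM, with that library lowest. The direction of the second comparison thus differed by sex, on 51, 81 and 28 cells and on 48, 36 and 34 cells. The part of the sex mix in the sums was not tested. The shares of cells with 5 or more members, 43.2%, 41.5% and 36.7%, had overlapping intervals, so the difference in the sum was not seen in the share at these 90 to 159 cells per library.

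Bub1 and Nusap1 held extreme places in more than 1 gate, an observation made after the values were seen. Bub1 had the highest polyIC over saline ratio of the 31 in microglia (1.26), border macrophages (1.33), neutrophils (1.22, 0.804 to 1.83) and radial glia (2.27, 1.52 to 3.47), and stood at 1.91 in monocytes. Nusap1 had the lowest in microglia (0.686) and border macrophages (0.619) and stood at 0.512 in neutrophils, 0.825 in monocytes and 1.11 in radial glia. The gates of a library share its preparation and its free RNA, so these are not independent repeats.

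The gates themselves were compared with a test, since each occurs in all 3 libraries. UMIs were summed per gate and library (15 sums) and fitted with edgeR's quasi-likelihood test, with library as a block and Benjamini-Hochberg adjustment over 12870 genes. Differences between libraries that all gates share are taken up by the block. The test therefore measures how far differences between gates vary over these 3 libraries, which differ in treatment and genotype. This spread is estimated over all gates together. Cells that met 2 gates entered both sums. For other settings of this fit only members were counted, without the share of all genes called.

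All 31 mitosis genes were higher in radial glia than in microglia, where 34.9% of genes were called higher (median log2 fold change 1.02, against 0.07 for all genes, range 0.44 to 1.60), and none was lower, where 27.9% were. The largest difference was that of Cenpf, at 362, 482 and 232 CPM in radial glia against 109, 93.9 and 87.7 CPM in microglia (log2 fold change 1.60, SE 0.22, edgeR adjusted p = 3.23e-05). The spindle protein Ckap2 stood at 46.1, 61.0 and 25.4 CPM against 13.1 to 13.8 CPM (1.49, SE 0.20, edgeR adjusted p = 2.61e-05). Ccnb1, cyclin B1, stood at 89.96, 149 and 123 CPM against 33.3 to 43.0 CPM (1.38, SE 0.18, edgeR adjusted p = 1.89e-05). The smallest differences were those of Kif20b, a late mitotic kinesin (0.44, SE 0.15, edgeR adjusted p = 0.0247), Bub1 (0.44, SE 0.18, edgeR adjusted p = 0.0463) and Tacc3, a spindle protein (0.49, SE 0.13, edgeR adjusted p = 0.00487). In every library all 31 were above their level in microglia. With 1 library left out 23 or 24 were called, and with the highest doublet scores removed 20 were.

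**Figure D5:**
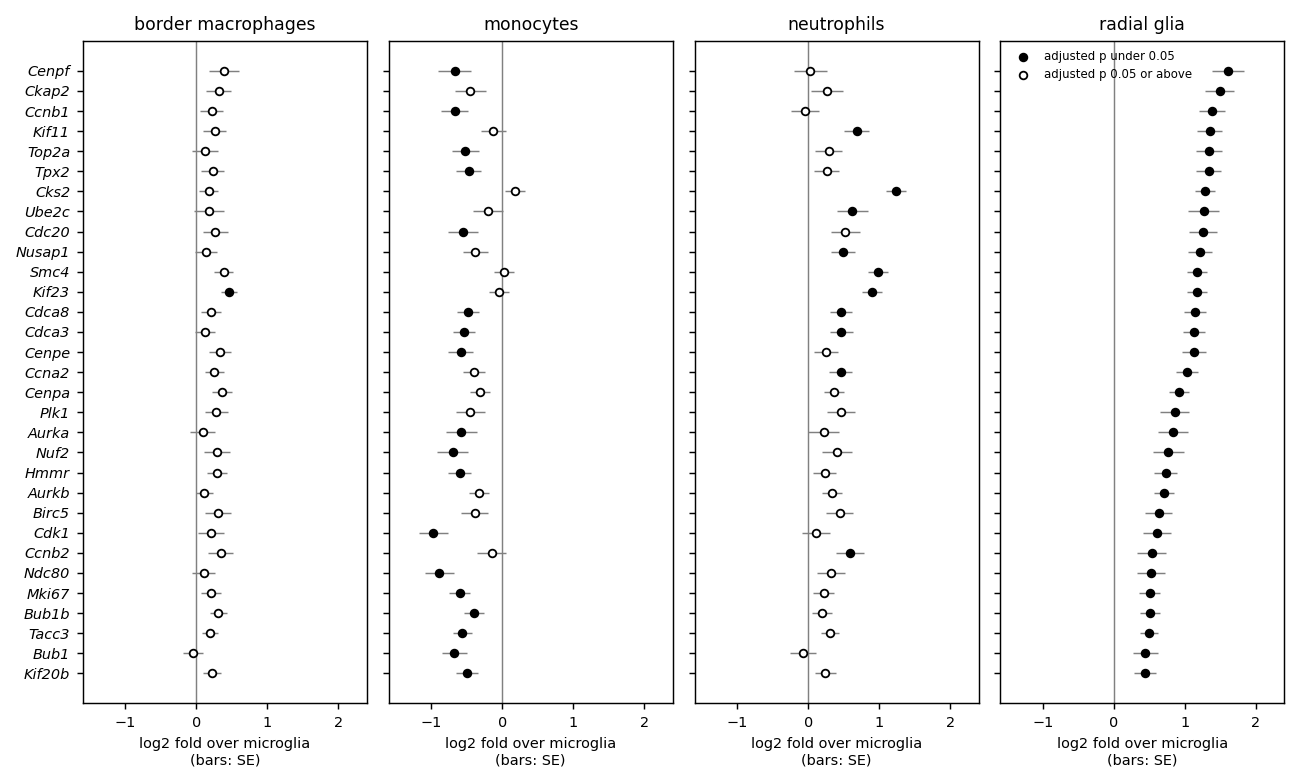
Log2 fold change of each mitosis gene in 4 gates over microglia from edgeR (bars are SE; filled points have an adjusted p under 0.05), ordered by the radial glia values. All 31 points are filled and right of 0 in radial glia, 18 are filled and left of 0 in monocytes, 10 are filled and right of 0 in neutrophils and 1, Kif23, in border macrophages.

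In monocytes 18 of 31 members were lower than in microglia, where 21.5% of genes were called lower, and none was higher, where 25.7% were (median log2 fold change -0.48). Cdk1 differed most, at 41.0, 31.7 and 36.1 CPM against 82.3, 76.7 and 101 CPM (-0.97, SE 0.20, edgeR adjusted p = 0.00143). Ndc80 followed at 5.75, 12.9 and 8.43 CPM against 19.1, 21.9 and 17.6 CPM (-0.88, SE 0.20, edgeR adjusted p = 0.00302), then its partner Nuf2 at 11.5, 9.03 and 9.22 CPM against 18.6 to 20.4 CPM (-0.70, SE 0.22, edgeR adjusted p = 0.0200). Cks2 (0.18, SE 0.14), Smc4 (0.02, SE 0.14) and the cytokinesis motor Kif23 (-0.04, SE 0.14) had the smallest reductions or none, and none of the 3 was called. The count rested on single libraries: it was 1 without the Gzmb-cko library, 7 without the saline library and 24 without the polyIC library.

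Neutrophils had 10 members called higher than in microglia, where 22.8% of genes were, and none lower, where 19.1% were, but this depended on the scale. With TMM scaling the median log2 fold change was 0.34, whereas on class totals 4 were called, 2 higher and 2 lower. S100a8 and S100a9 together took 103865, 138903 and 105620 CPM of neutrophil UMIs. Cks2 was highest, at 128, 136 and 162 CPM against 85.0, 81.2 and 95.6 CPM (1.24, SE 0.14, edgeR adjusted p = 1.72e-05). Smc4 stood at 138, 105 and 128 CPM against 99.5, 94.99 and 79.5 CPM (0.98, SE 0.14, edgeR adjusted p = 9.12e-05), and Kif23 at 24.7, 23.2 and 28.8 CPM against 21.9, 18.7 and 18.9 CPM (0.90, SE 0.14, edgeR adjusted p = 0.000172). These 3 were above microglia in CPM in every library. Bub1 (-0.08, SE 0.18), Ccnb1 (-0.04, SE 0.20) and Cenpf (0.03, SE 0.23) had the smallest values, were not called, and were below microglia in CPM in every library. The count was 4 without the saline or the Gzmb-cko library, 19 without the polyIC library and 3 with the highest doublet scores removed.

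Border macrophages differed least from microglia. Kif23 was the 1 member called, at 26.8, 24.8 and 30.4 CPM against 21.9, 18.7 and 18.9 CPM (log2 fold change 0.46, SE 0.12, edgeR adjusted p = 0.0311). Of all genes 4.45% were called higher and 2.14% lower, and 4 members had an unadjusted p under 0.05. Yet 30 of 31 values were positive (median 0.23, against -0.01 for all genes). The next largest were Cenpf (0.39, SE 0.21) and Smc4 (0.38, SE 0.13), and the smallest Bub1 (-0.05, SE 0.15), Aurka (0.09, SE 0.18) and Ndc80 (0.10, SE 0.16). A fit of these 2 gates alone, whose spread is not shared with the other gates, called 16 higher. The share of all genes called in that fit was not counted, so the 16 cannot be read as particular to the members. No member was called without the saline or the Gzmb-cko library, and 6 were without the polyIC library.

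The second mitosis list gave the same directions, with 45 of 55 genes called higher in radial glia, 31 lower and 2 higher in monocytes, 16 higher in neutrophils and 1 higher in border macrophages. Of all genes, 34.9% were called higher and 27.9% lower in radial glia, and 25.7% and 21.5% in monocytes. In neutrophils these shares were 22.8% and 19.1%, and in border macrophages 4.45% and 2.14%. The list's higher calls in neutrophils and border macrophages do not stand out from these shares. Of the S phase genes, 29 of 34 were called lower in monocytes, 19 higher and 2 lower in radial glia, 5 higher and 5 lower in neutrophils and none in border macrophages. Of the 27 mitotic regulators, 13 were called higher and 3 lower in radial glia, and 3 higher and 8 lower in monocytes.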

How the data were processed

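The deposited tables hold raw UMI counts per gene and barcode, 1 per library. The file headers name Cell Ranger 5.0.0 as the program. Per the submitters' processing notes, Cell Ranger 3.0.1 and STAR were used with mm10. Library totals were 89295907, 85442198 and 105574073 UMIs. The members and all gene lists were chosen with earlier results of these data known. CPM were computed from the summed counts of a gate's cells. Intervals at 95% are exact Poisson (levels), Clopper-Pearson (shares) and conditional binomial (ratios). Counts of higher and lower genes took those whose average over a gate's 3 libraries reached 10 CPM. Shares of cells used thinning to 2000 UMIs.

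Gates were compared with edgeR 4.0.16 on UMI counts, and DESeq2 1.42.0 was an alternative. The edgeR fit was tested on simulated data. Library was the block, because the gates of a library come from the same animals. Scrublet scores came from scanpy 1.11.5; its automatic threshold called 0%, 2.65% and 4.06% of cells, so doublets were kept, and an alternative removed the expected number of highest scores (0.8% per 1000 barcodes). All 31 members matched the mouse annotation by symbol, none overlapped a gene on the same strand, and 2 (Ccnb1 and Ccnb2) have named pseudogenes, so their counts are less certain.

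Part of the named genes were fixed by rule: the 8 members with the highest mean in microglia, the 3 highest and 3 lowest ratios per library comparison in microglia, the 3 largest and 3 smallest fold changes per gate, members under 10 CPM in microglia (there were none), at most 4 genes per list and the 12 other genes with the largest ratios in member-rich microglia. Members named elsewhere, as in the S phase split and within single gates, fell outside these rules. Some of them were chosen after their values were seen.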

Additional observations from a re-analysis of the deposited data

Results flagged for a closer look

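The summed level of the mitosis genes differed in direction between gates under the same library comparison, and none of these differences was tested. With polyIC over saline the ratio was 1.14 in monocytes and 1.33 in radial glia, but 0.897 in microglia, 0.903 in border macrophages and 0.668 in neutrophils. With Gzmb-cko over Ncr1-cre under polyIC it was 1.04 in microglia, 1.26 in border macrophages and 1.55 in neutrophils, but 0.724 in monocytes and 0.697 in radial glia. Radial glia with Xist alone went the other way, at 6946 CPM with Gzmb-cko against 4906 CPM. With Gzmb-cko polyIC over saline it was 1.14 in border macrophages, but 0.932 in microglia, 0.823 in monocytes and 0.929 in radial glia. The polyIC library enters the first and the second comparison, so their opposite directions are not independent.

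Cells that met none of the 5 gates were outside the comparisons and carried the mitosis genes at 2447, 2444 and 2753 CPM, highest in the Gzmb-cko library. Of them 23.5%, 18.3% and 22.1% had 5 or more members at 2000 UMIs.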

How the results depend on the processing

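In microglia the summed ratio of polyIC over saline (0.897) was 0.909 with the lowest saline UMI total as a floor for all, 0.933 with at least 1000 genes and at most 5% mitochondrial UMIs, 0.860 without the highest Scrublet scores, 0.875 in cells of no other gate, 0.869 with 2 or more P2ry12 UMIs, 0.863 with 4 other markers, 0.830 at up to 1% hemoglobin, 0.934 and 0.789 in cells with Xist or Y gene UMIs alone, 0.820 without mitochondrial, ribosomal protein and hemoglobin genes, 0.788 as a mean over cells and 0.793 relative to the median gene. For Gzmb-cko over polyIC (1.04) the values that moved beyond counting error were, in the same order of settings, 0.993, 1.08, 1.06, 1.06, 1.02, 1.01 and 1.11 by sex, 1.07 and 1.06. For Gzmb-cko over saline (0.932) they were 0.898 with more P2ry12, 0.915 with 4 other markers, 0.845 at low hemoglobin, 0.876 with Y gene UMIs, 0.945 without Top2a, 0.850 with genes left out, 0.845 as a mean over cells and 0.847 relative to the median gene.

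The share of microglia with 5 or more members was 13.8%, 9.87% and 11.2% at 1000 UMIs, 22.1%, 14.6% and 17.7% at 3000 UMIs, 26.8%, 18.48% and 23.5% without thinning, 24.3%, 16.5% and 19.7% for 3 or more members and 14.4%, 10.0% and 12.1% for 8 or more. It was 17.7%, 11.9% and 14.7% without the highest Scrublet scores. The saline share was 20.3% under the stricter filter and 20.4% at low hemoglobin, and the Gzmb-cko share 14.6% among cells with Xist alone.

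Between gates, without the replicate block (library) 0 members were called in border macrophages, 11 in monocytes, 5 in neutrophils and 26 in radial glia. Leaving out each library gave 0 to 6, 1 to 24, 4 to 19 and 23 to 24. The fit of 2 gates alone called 16 in border macrophages. Without the highest Scrublet scores 29 were called in monocytes, 3 in neutrophils and 20 in radial glia. In neutrophils class totals gave 4, no filter on low counts 6 and the saline floor of UMIs 16. DESeq2 called 1, 20, 13 and 31. The share of all genes called was not counted in any of these other fits. No paired analysis between the groups was possible because each has 1 library.

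In the other gates 44 of 48 summed ratios kept their side of 1. Those that did not were polyIC over saline (0.707) and Gzmb-cko over polyIC (1.14) in monocytes without the highest Scrublet scores, and Gzmb-cko over saline in neutrophils at low hemoglobin (0.921) and in cells of no other gate (0.913). The planned doublet removal at Scrublet's automatic threshold was not run, since it called none in the saline library. The cause of these changes was not tested. Shares by gate rest on 73 to 5452 cells, and those of the neutrophil split on as few as 12. The shares of radial glia, monocytes, neurons and choroid plexus cells are too coarse to order the libraries.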
